A study of Mus musculus with 6 samples.

Results

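The 41 genes followed here are lung endothelial genes, a list of named genes that mark the cells lining blood and lymph vessels. Each was matched by its symbol in a deposited table of 21774 mRNA genes, 41 of 41 were found, and where a gene had several transcripts the one with the highest mean stood for it. The list was split into 22 pan-endothelial genes, 10 genes of capillaries, 4 of lymphatic vessels and 5 of venules or activated endothelium. The libraries are of wild-type (WT) mouse lung cells that were selected with B220 microbeads and labelled B cells. Which cells in the preparation the RNA of these genes came from was not tested. There were 3 libraries from control mice, labelled as untreated and, per the labels' protocols, given buffer alone into the trachea, and 3 from mice with severe asthma. The latter were sensitized with 10 μg of LPS plus 25 μg of house dust mite (HDM) in 35 μl on days 0 to 2, and then challenged through the airway with 25 μg of HDM without LPS, 8 times between days 7 and 14. The series set out to compare lung B cells in a setting where lymphoid tissue (iBALT) forms around the airways. Strain and age are not given in the sources used here, nor whether libraries came from separate animals or pools, and the p-values therefore cover only the library-to-library spread, which may be technical.

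Endothelial cells are held together by VE-cadherin and claudin-5, take their survival and growth signals through the VEGF and angiopoietin receptors, and keep their identity through ETS and SOXF transcription factors. In the lung, a dense net of capillaries carries out gas exchange, venules are the main site where leukocytes leave the blood and display selectins when activated, and lymphatic vessels drain the airways. B220 is a form of CD45 found on B cells and is not an endothelial marker.

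Endothelial RNA was lower in the severe asthma libraries. Of the 41 genes, all of which passed the filter on low values, 37 fell, 0 rose and 4 did not pass the test (limma on log2(value + 1), Benjamini-Hochberg adjusted p under 0.05 over 15759 genes). Of all genes tested, 14.4% fell and 20.7% rose. The median log2 fold change of the 41 genes was -3.06, against 0.06 for all genes tested, and 32 of them fell at least 4-fold, as did 7.87% of all genes. For 39 of the 41, every severe asthma library lay below every control library, against 21.6% of all genes. The authors' deposited table of called genes holds 37 of the 41, of which 35 are among those that fell here. It rests on the same 6 libraries, so the overlap is not separate evidence, and the share of all genes it holds was not computed. The authors' deposited term table lists regulation of vasculature development with a q-value of 2.64e-26 and 115 genes, 13 of which belong to the list. That q-value is for enrichment among the genes the authors called in the same libraries. No direction is read from it, and it is not separate evidence of the fall. In bulk libraries fewer endothelial cells and less RNA per cell cannot be told apart.

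The mRNA genes took 16498219 to 18054903 reads per library. Reads of the 41 genes made up 0.686%, 0.232% and 0.29% of them in controls 1 to 3, against 0.0933%, 0.05% and 0.0528% in the severe asthma libraries of the same numbers. Pecam1 and Icam2, which lymphocytes also carry, made up 11.1%, 21.1% and 17.4% of the summed value of the 41 genes in controls and 36.4%, 58.2% and 57.4% in severe asthma. Without these genes the other 39 held 0.609%, 0.183% and 0.24% of reads in controls and 0.0593%, 0.0209% and 0.0225% in severe asthma. Control 1 stood apart. It was the highest of all 6 libraries for 38 of the 41 genes (27.7% of all genes), with a median excess over controls 2 and 3 of 1.49 on the log2 scale. Severe asthma 1 was the highest of its group for 39 genes, with a median excess of 1.53. The share of all genes for which it was highest was not computed. When control 1 was left out 25 genes fell, with a median log2 fold change of -2.53. The count was 12 without severe asthma 2, 11 without severe asthma 3 and 24 with limma-voom on recovered reads, with medians of -2.73, -2.76 and -3.15. Of the 37 genes that fell, 7 passed in all 19 alternatives (Eng, Egfl7, Nos3, Apln, Tmem100, Hpgd and Lyve1) and 30 missed the threshold in at least 1.

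Libraries of the same number differed by similar amounts. The median log2 difference over the 41 genes was -3.11 between the libraries numbered 1, -2.90 between those numbered 2 and -3.06 between those numbered 3. For 39 genes the severe asthma library was the lower in all 3 pairs. These are the 39 genes whose groups did not overlap, so for them any pairing would give the same. With the replicate number as a block, 39 genes fell, and with both libraries numbered 1 left out 38 did, with a median of -3.04.

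**Figure D1:**
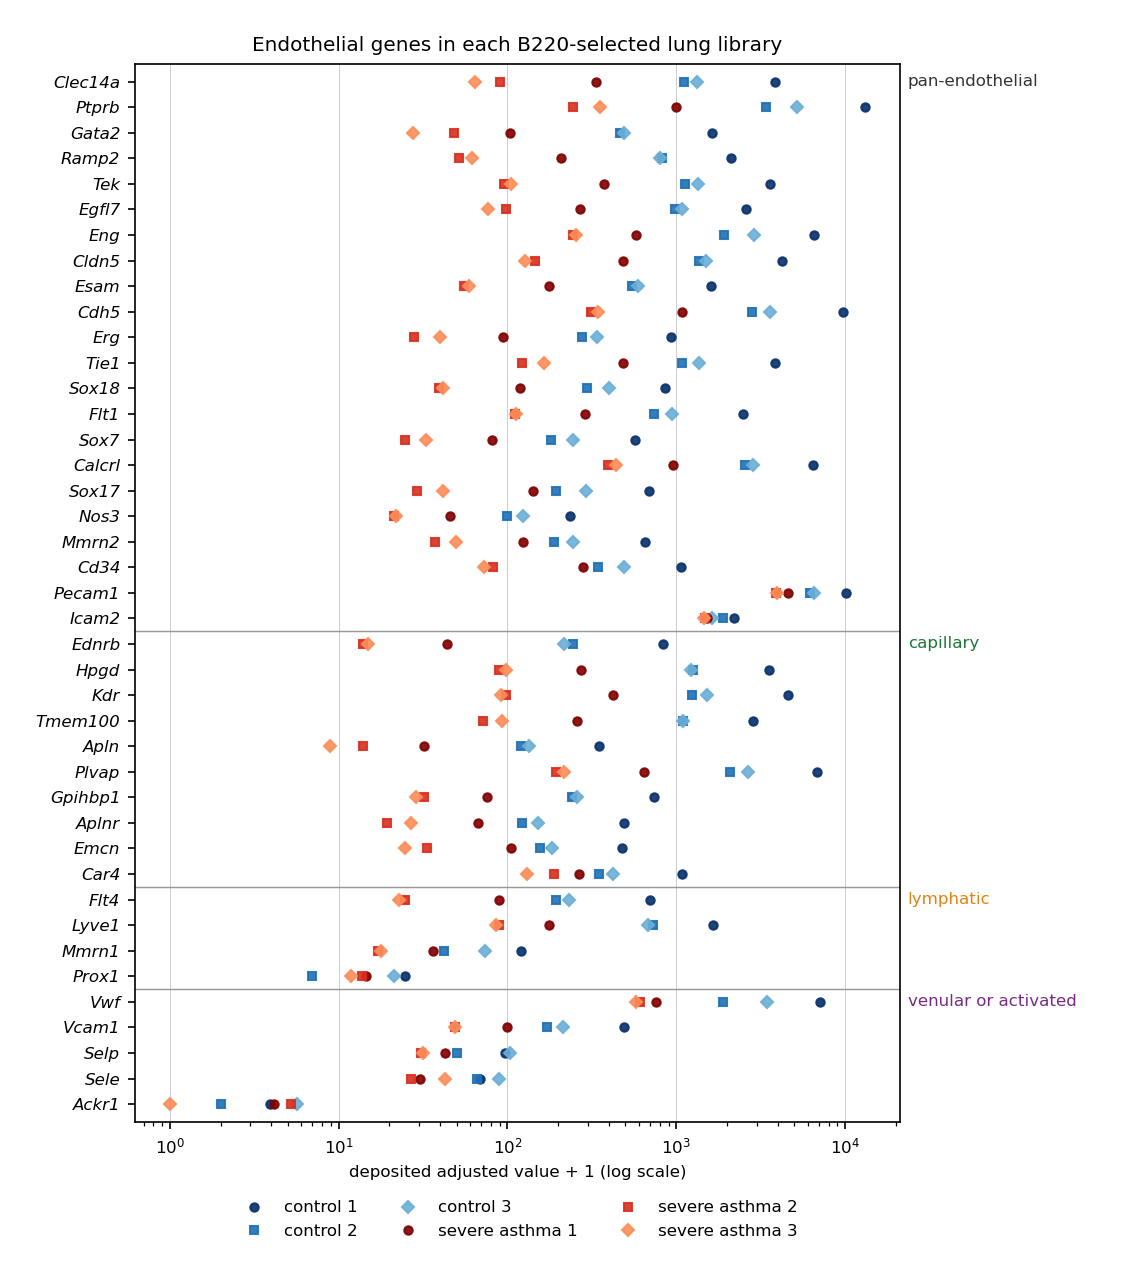
Deposited adjusted value plus 1 (horizontal log axis) of each of the 41 endothelial genes (rows, by class) in the 6 libraries, with 1 point per library. Blue points, the control libraries, lie to the right of the red and orange severe asthma points in 39 rows, and control 1 is the rightmost point in 38.

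Of the 22 pan-endothelial genes, 21 fell and 0 rose, and the median change was -3.15 on the log2 scale (-2.63 without control 1). Among their junction and surface genes, Cdh5, which encodes VE-cadherin (mm10, chromosome 8, 104101613 to 104144504, plus strand), read 9740, 2794 and 3569 in controls 1 to 3, whereas severe asthma libraries 1 to 3 held 1078, 314 and 343. These are deposited read counts adjusted for library size, and the groups did not overlap. Cdh5 fell from 5368 ± 3806 to 578 ± 433 (SD, n = 3 each), a log2 fold change of -3.23 (SE 0.684, adjusted p = 0.0196). Ptprb, the phosphatase VE-PTP that acts on VE-cadherin and the receptor Tie2, read 13160, 3417 and 5212 in controls and 993, 244 and 353 in severe asthma. Control 1 was the highest and severe asthma 2 the lowest, and Ptprb fell by 3.80 on the log2 scale (SE 0.718, adjusted p = 0.0146). The tight junction gene Cldn5 (log2 fold change -3.31), the adhesion gene Esam (-3.28) and the lectin gene Clec14a (-3.84) fell as well. Mmrn2, a matrix protein that binds Clec14a, fell by 2.35. The calls of Cdh5, Cldn5 and Clec14a were lost without control 1, severe asthma 2 or severe asthma 3 (adjusted p up to 0.0752), that of Ptprb without control 1 or severe asthma 3 (up to 0.0575) and that of Esam without severe asthma 2 or 3 (up to 0.0587). Mmrn2 missed the threshold with limma-voom and when control 1, control 3, severe asthma 2 or severe asthma 3 was left out (up to 0.117).

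Eng, the co-receptor endoglin of the BMP and TGF-beta pathway, read 6569, 1904 and 2882 in controls and 580 (579.5), 242 and 254 in severe asthma. No severe asthma library reached the lowest control, and the log2 fold change was -3.32 (SE 0.573, adjusted p = 0.0114). Calcrl, which with its partner Ramp2 forms the adrenomedullin receptor, read 6452, 2537 and 2857 in controls and 949, 395 and 440 (439.5) in severe asthma. Calcrl fell by 2.71 on the log2 scale (SE 0.501, adjusted p = 0.0137) and Ramp2 fell too (-3.68). Egfl7, a secreted vessel protein (-3.48), and Nos3, the endothelial nitric oxide synthase (-2.36), fell too. The call of Calcrl was lost without severe asthma 3 (adjusted p = 0.0544) and that of Ramp2 without control 1 or severe asthma 3 (up to 0.053).

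Pecam1 and Icam2 had the smallest falls among the pan-endothelial genes, and both are also carried by leukocytes, including lymphocytes. Pecam1 read 10140, 6232 and 6550 (6550.0) in controls and 4559, 3886 and 3971 in severe asthma, a log2 fold change of -0.85 (SE 0.189, adjusted p = 0.0165). Icam2, a ligand of the integrin LFA-1, read 2204, 1900 (1900.0) and 1618 in controls and 1521, 1477 and 1466 in severe asthma. Its groups also did not overlap, and it fell by 0.35 (SE 0.109, adjusted p = 0.041). The call of Pecam1 was lost without severe asthma 2 or 3 (adjusted p up to 0.0696). The call of Icam2 was lost without control 2, without any 1 severe asthma library and with transcripts summed per gene, with adjusted p of up to 0.126. Cd34, a sialomucin of vessels that fibroblasts and progenitors also carry, read 1072, 343 and 492 in controls and 280 (279.6), 81.3 and 71.4 in severe asthma. Its log2 fold change of -2.26 did not pass (SE 0.682, adjusted p = 0.053), although the groups did not overlap. Cd34 passed in 11 of 19 alternatives, among them edgeR (adjusted p = 0.0427), DESeq2 (0.00103) and the replicate block (6.77e-05). In the others it missed the threshold (up to 0.173).

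The transcription factors of endothelial identity fell with the surface genes. Erg, an ETS factor that holds endothelial cells in their fate, read 933, 274 and 336 in controls and 93.8, 26.9 and 38.7 in severe asthma, a log2 fold change of -3.23 (SE 0.641, adjusted p = 0.0151). The SOXF genes Sox18, Sox7 and Sox17 fell, with changes of -3.00, -2.86 and -2.61 on the log2 scale, and so did Gata2, a factor of blood progenitors and endothelium (-3.80). Sox17 had the largest adjusted p of the genes that fell (0.0468), and its call was lost without control 1, control 3, severe asthma 2 or severe asthma 3, with no filter on low values and with limma-voom (adjusted p up to 0.137). The other calls among these factors were lost without severe asthma 2 or 3 (Erg, Sox7 and Sox18) or with limma-voom (Erg, Sox7 and Gata2), with adjusted p of up to 0.065 in all.

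Receptors of the VEGF and angiopoietin families fell together. Kdr, VEGF receptor 2 (chromosome 5, 75932827 to 75979072, minus strand), read 4562, 1238 and 1515 in controls and 424, 97.3 and 90.2 in severe asthma (log2 fold change -3.71, SE 0.801, adjusted p = 0.0205). Flt1, VEGF receptor 1, fell by 2.97, and Flt4, the lymphatic VEGF receptor 3, by 3.10. The control mean of Tek, the angiopoietin receptor Tie2, was 2022 ± 1366 and its severe asthma mean 190 (189.9) ± 157 (SD, n = 3 each), a change of -3.51 on the log2 scale. Its orphan partner Tie1 fell as well (-3.06). All 5 calls were lost without severe asthma 2 or 3, those of Kdr, Tek and Tie1 also without control 1, that of Tie1 without control 3 and that of Flt4 with limma-voom (adjusted p up to 0.0891). The promoter windows of these receptors are shown because ETS and SOX factors are themselves on the list. Whether these factors had a part in the falls was not tested. RefSeq windows (GRCm38.p6, the same build as mm10) run from 250 bases before to 50 bases after the start. They were searched on both strands for AGGAAG, an ETS core with flanks, and ACAAT, a SOX core, whose letters cannot overlap each other. For Kdr, Flt1 and Tek the start used lies inside the gene span given by the authors, and windows around other starts were not searched. The 3 windows that held a match are printed 5′ to 3′ on the strand of the gene, with the matches in capitals.

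Flt1, chr5:147725962-147726261, minus strand: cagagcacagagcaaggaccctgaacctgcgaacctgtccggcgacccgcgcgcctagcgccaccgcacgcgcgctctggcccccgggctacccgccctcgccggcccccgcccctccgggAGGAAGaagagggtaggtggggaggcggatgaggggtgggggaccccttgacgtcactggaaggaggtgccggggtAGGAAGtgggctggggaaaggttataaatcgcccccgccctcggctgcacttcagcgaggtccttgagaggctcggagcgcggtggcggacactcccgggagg
Tie1, chr4:118489800-118490099, minus strand: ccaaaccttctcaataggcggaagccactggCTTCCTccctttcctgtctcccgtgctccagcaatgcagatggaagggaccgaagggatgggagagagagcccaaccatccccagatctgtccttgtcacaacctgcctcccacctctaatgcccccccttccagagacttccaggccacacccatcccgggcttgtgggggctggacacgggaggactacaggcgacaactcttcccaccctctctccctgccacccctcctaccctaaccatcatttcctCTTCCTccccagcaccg
Tek, chr4:94739039-94739338, plus strand: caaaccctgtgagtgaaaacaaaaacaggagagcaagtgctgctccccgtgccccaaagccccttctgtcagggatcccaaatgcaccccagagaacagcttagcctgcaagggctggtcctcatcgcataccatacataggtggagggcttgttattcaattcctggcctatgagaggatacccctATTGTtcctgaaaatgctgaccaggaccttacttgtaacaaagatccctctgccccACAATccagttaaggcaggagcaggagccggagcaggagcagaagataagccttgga

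Flt1 and Tie1 each held 2 ETS matches and Tek held 2 SOX matches, while the windows of Kdr and Flt4 held neither. Of 29 windows of the 23 listed genes in the table, 14 held AGGAAG and 8 held ACAAT (48.3% and 27.6%). Of all 32851 windows, 35.4% and 31.0% did. A match describes letters in the window and not a bound site.

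Of the 10 capillary genes, 9 fell and 0 rose, and the median change was -3.49 on the log2 scale (-3.00 without control 1). Plvap, which builds the diaphragms of fenestrae and caveolae, read 6801, 2080 (2080.0) and 2666 in controls and 640 (640.0), 192 and 214 in severe asthma. The lowest control stood above the highest severe asthma library, and Plvap fell by 3.49 on the log2 scale (SE 0.654, adjusted p = 0.0143). Hpgd, which breaks down prostaglandins, read 3532, 1252 and 1230 (1230.0) in controls and 273, 87.7 and 97.2 in severe asthma. Tmem100, a membrane protein downstream of BMP signals, read 2845, 1098 and 1090 (1090.0) in controls and 259, 70.6 and 91.3 in severe asthma. Both showed no overlap, with log2 fold changes of -3.72 and -3.65 (adjusted p = 0.0107 and 0.0115). The call of Plvap was lost without control 1, severe asthma 2 or severe asthma 3 (adjusted p up to 0.0553).

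Gpihbp1, which carries lipoprotein lipase to the capillary lumen, read 734, 239 and 257 in controls and 75.0, 31.1 and 27.8 in severe asthma, a log2 fold change of -3.12 (SE 0.562, adjusted p = 0.0099). The peptide gene Apln and its receptor Aplnr, which in mouse lung mark different capillary cells, fell too (-3.49 and -2.68). Emcn, a sialomucin of capillaries and veins, fell by 2.44. The largest fall of all 41 genes was that of Ednrb, an endothelin receptor of gas-exchange capillary cells, which read 832, 242 and 216 in controls and 42.6, 12.9 and 13.9 in severe asthma (log2 fold change -4.08, SE 0.674, adjusted p = 0.00778). Ednrb was singled out after its values were seen. With limma-voom the calls of Ednrb, Gpihbp1, Aplnr and Emcn were lost, Gpihbp1 was also lost without severe asthma 2, Aplnr without severe asthma 2 or 3, and Emcn without control 1, control 3, severe asthma 2 or severe asthma 3, with adjusted p of up to 0.122 in all. Car4, a carbonic anhydrase of the same gas-exchange cells, read 1086, 346 and 419 in controls and 264, 189 and 130 (130.0) in severe asthma. The groups did not overlap, but the log2 fold change of -1.53 did not pass (SE 0.51, adjusted p = 0.0688). Car4 passed in 5 of 19 alternatives, among them edgeR (adjusted p = 0.0369), DESeq2 (0.0011) and the replicate block (0.00343). In the others it missed the threshold (up to 0.18).

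Of the 4 lymphatic genes, 3 fell and 0 rose, and the median change was -2.39 on the log2 scale (-1.92 without control 1). Flt4 read 697, 193 and 232 in controls and 88.5, 23.7 and 21.8 in severe asthma. Lyve1, a hyaluronan receptor of lymphatic endothelium that some macrophages also carry, read 1656, 730 (730.2) and 679 in controls and 175, 87.6 and 84.3 in severe asthma. Both separated the groups, and the fall of Lyve1 (log2 fold change -3.09, SE 0.459, adjusted p = 0.00749) kept its call in all 19 alternatives. Mmrn1, a protein of lymphatic endothelium and platelets, read 120 (120.0), 41.01 and 72.6 in controls and 35.4, 16.1 and 16.9 in severe asthma, a log2 fold change of -1.69 (SE 0.474, adjusted p = 0.0277). Mmrn1 missed the threshold with limma-voom and when control 3, severe asthma 2 or severe asthma 3 was left out (adjusted p up to 0.108). Prox1, the transcription factor that sets lymphatic fate, read 23.6, 6.002 and 20.3 in controls and 13.6, 12.8 and 10.9 in severe asthma. Its groups overlapped, control 2 being the lowest of all, and its log2 fold change of -0.21 did not pass (SE 0.532, adjusted p = 0.793).

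Of the 5 venular or activated genes, 4 fell and 0 rose, and the median change was -1.19 on the log2 scale (-1.23 without control 1). This median counts Ackr1, which lay at the floor. With a mean value of at least 10, which removes Ackr1, the median was -1.635. Vwf, the clotting factor carrier that endothelium stores and platelets also contain, read 7149, 1886 and 3440 (3440.0) in controls and 757, 608 and 578 in severe asthma, a log2 fold change of -2.48 (SE 0.491, adjusted p = 0.0165). Vcam1, the ligand of integrin alpha4 that cytokines induce on venules and that stromal cells and macrophages also make, read 487, 171 and 212 in controls and 98.0, 48.1 and 47.6 in severe asthma (log2 fold change -2.08, adjusted p = 0.0162). Each of these genes was separated between groups. The call of Vwf was lost without both libraries numbered 1 and without severe asthma 2 or 3 (adjusted p up to 0.0659), and that of Vcam1 without severe asthma 2 or 3 and with limma-voom (up to 0.071).

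The selectins, which catch rolling leukocytes, were low in all libraries. Sele, E-selectin, read 67.8, 65.0 and 87.5 in controls and 29.3, 25.7 and 41.7 in severe asthma, a log2 fold change of -1.18 (SE 0.29, adjusted p = 0.018). Selp, P-selectin, which platelets also store, read 95.4, 49.0 and 102 in controls and 41.7, 29.9 and 30.8 in severe asthma (-1.19, SE 0.345, adjusted p = 0.0314). For these genes control 1 was not the highest library, in contrast to the 22 pan-endothelial and 10 capillary genes, where it always was. The call of Sele was lost without control 3, severe asthma 1 or severe asthma 2 (adjusted p up to 0.0726), and that of Selp without control 3, severe asthma 2 or severe asthma 3, with limma-voom and with transcripts summed per gene (up to 0.11). Ackr1, the chemokine-binding receptor of venules, read 2.95, 1.00 and 4.66 in controls and 3.12, 4.21 and 0 in severe asthma. Both groups lay at the floor of about 3 reads, so no fold is read from them.

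**Figure D2:**
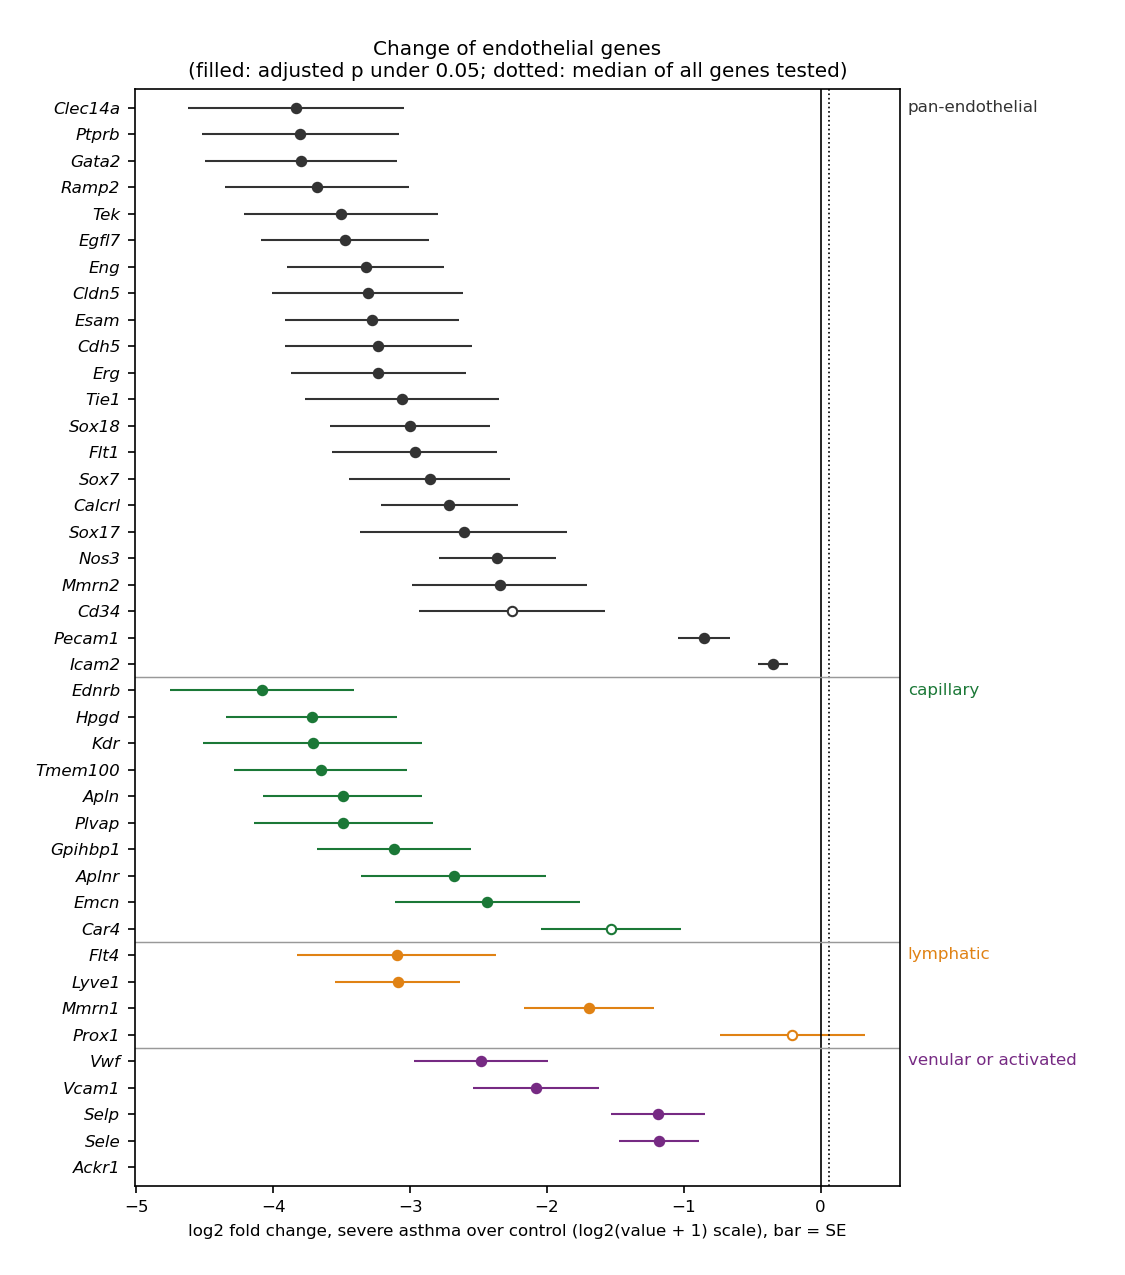
Log2 fold change of severe asthma over control on the log2(value + 1) scale (horizontal axis) with its SE as the bar, for 40 endothelial genes by class. Ackr1 is not drawn because both groups lay at the floor. The dotted line is the median of all genes tested (0.06), filled points passed the adjusted threshold, and the points run from -4.08 for Ednrb to -0.21 for Prox1.

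The proportions among the genes were read by dividing each value by that of Cdh5 in the same library. The quotient itself depends on transcript lengths, so only its change between libraries is described. Of 40 such quotients, 16 were higher in every severe asthma library than in every control library, 9 were lower and 15 overlapped. Across all genes tested 85.6% were higher and 1.54% lower without overlap. The smallest two-sided exact permutation p that 3 against 3 libraries allow is 0.1, which 25 quotients reached (adjusted p = 0.16 over the 40), so none passed a threshold of 0.05.

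Some core genes had similar quotients in both groups. Erg stood at 9.58%, 9.81% and 9.43% of Cdh5 in controls and at 8.70%, 8.57% and 11.3% in severe asthma, and Esam at 16.5%, 19.6% and 16.7% against 16.2%, 17.4% and 17.0%. For these the groups overlapped. The quotients that were lower without overlap belonged to Ednrb, Clec14a, Ptprb, Hpgd, Ramp2, Kdr, Tmem100, Tek and Plvap, 5 of them capillary genes. Ednrb went from a mean of 7.75% to 4.04% of Cdh5, and Kdr from 44.5% to 32.2%.

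The 16 that were higher without overlap were 8 pan-endothelial genes (Icam2, Pecam1, Cd34, Mmrn2, Nos3, Sox17, Sox7 and Flt1), 3 capillary genes (Car4, Emcn and Aplnr), the lymphatic genes Prox1 and Mmrn1, and Sele, Selp and Vcam1. Icam2 and Pecam1 went from 45.3% and 170% (170.0%) of Cdh5 on average to 346% and 939%, and Prox1, which has few reads, from 0.342% to 2.84%. The quotient of Selp went from 0.979%, 1.75% and 2.87% of Cdh5 in controls to 3.87%, 9.53% and 8.96% in severe asthma. Sele went from 0.696%, 2.33% and 2.45% to 2.72%, 8.18% and 12.1%, and Vcam1 from 5.0%, 6.12% and 5.95% to 9.09%, 15.3% and 13.9%. For Vwf the groups overlapped, at 73.4%, 67.5% and 96.4% against 70.3%, 194% and 168%. The median ratio of the severe asthma to the control quotient was 0.818 for capillary, 1.13 for pan-endothelial, 1.96 for lymphatic and 3.98 for venular or activated genes (3.12 without Ackr1), and the difference between classes was not tested. Among capillary genes, Car4 went from 11.1% to 12.4% of Cdh5 in controls to 24.5% to 60.2% in severe asthma, Emcn from a mean of 5.18% to 8.95% and Aplnr from 4.53% to 6.48%.

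**Figure D3:**
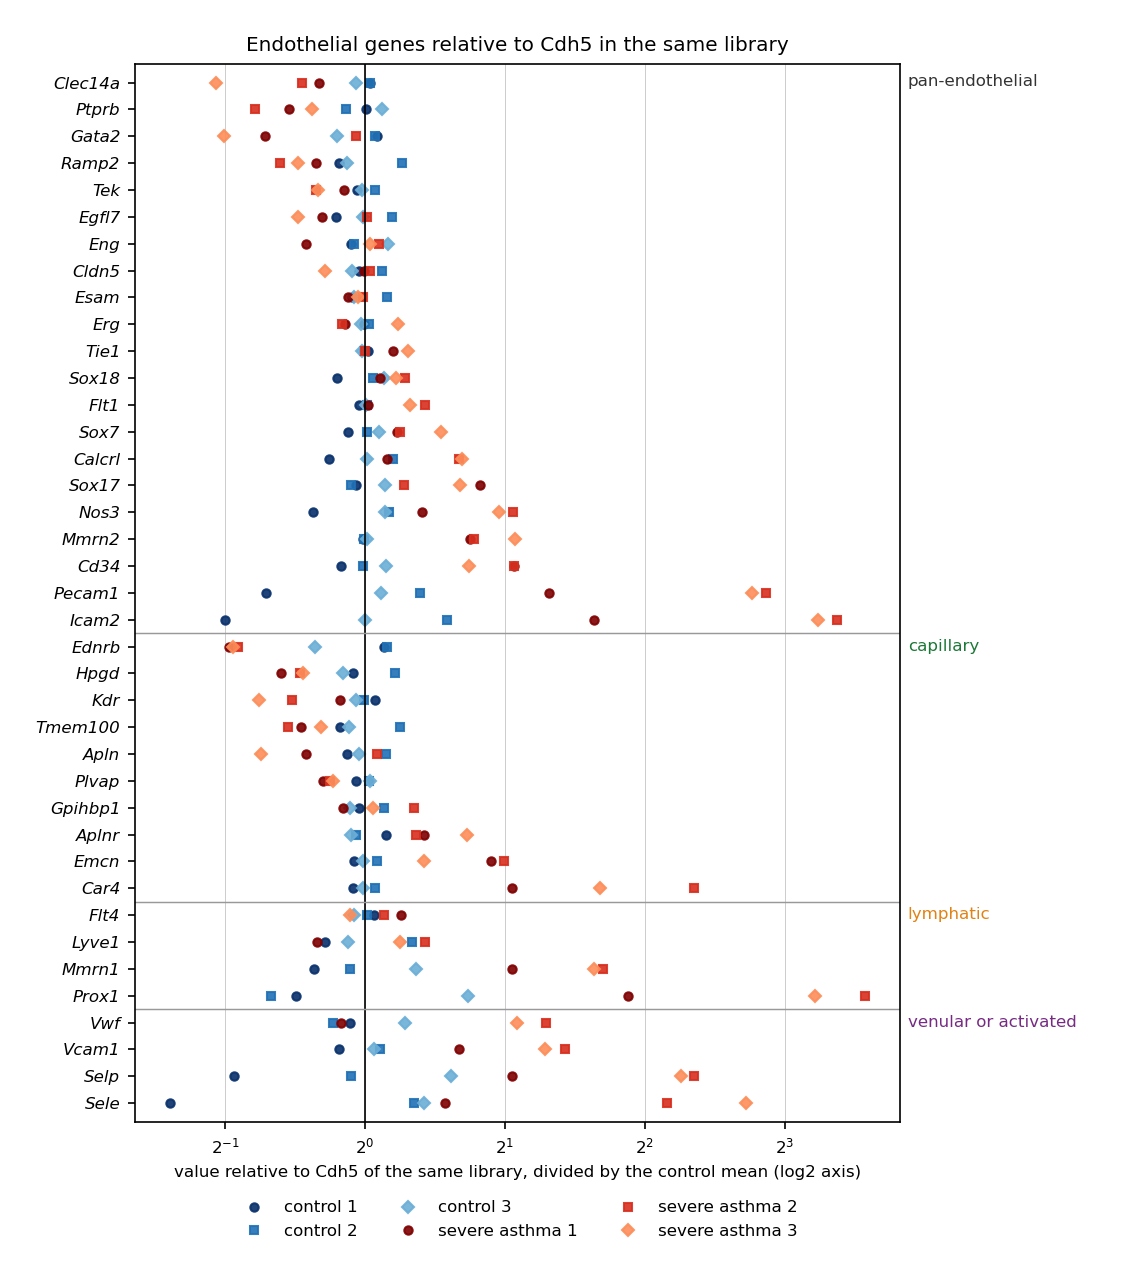
Each gene's value relative to Cdh5 of the same library, divided by the control mean of that quotient (horizontal log2 axis), with 1 point per library. Cdh5 and Ackr1 are not drawn. In severe asthma the capillary genes Ednrb and Kdr lie left of the line at 1. The capillary genes Car4, Emcn and Aplnr lie right of it, as do Selp and Sele. Of all genes tested, 85.6% were higher relative to Cdh5 in severe asthma without overlap.

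Other genes of the vessel pathways were read from lists that hold none of the 41. Of 12 vessel ligands and co-receptors tested, mainly of the VEGF and angiopoietin families, 7 fell and 1 rose (median log2 fold change -2.22). Nrp1, a VEGF co-receptor (log2 fold change -2.17), and Bmp6 (-3.63) fell, whereas Vegfa read 3073, 954 and 1028 in controls and 1038, 1061 and 709 in severe asthma and did not pass (adjusted p = 0.361). The gene that rose was Vegfb (0.68). Of 28 other endothelial signalling genes, 21 fell and 2 rose (median -2.71), with falls of the thrombin-binding thrombomodulin, Thbd (-2.82), and of Cav1, the coat protein of caveolae (-1.92). S1pr1, which lymphocytes also use to leave tissue, read 5533 to 7034 in controls and 4356 to 6036 in severe asthma (adjusted p = 0.0824). The genes that rose were Procr, the endothelial protein C receptor (3.39), and Rgcc (1.08). Which cells the RNA of Procr and Rgcc came from was not tested.

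Of 12 other transcription factors of endothelium tested, 6 fell and 1 rose (median -0.46). Epas1, the hypoxia factor HIF-2 alpha, fell by 3.82, and Ets1, which lymphocytes express strongly, by 0.52. Klf2, a flow-induced factor that resting lymphocytes also express, had a log2 fold change of 0.16 and did not pass (adjusted p = 0.788), and Hhex was the 1 gene that rose (0.35). Of 9 genes of high endothelial venules tested, the vessels through which lymphocytes enter lymphoid tissue, 3 fell and 0 rose (median -0.31). Tnfrsf1b, a TNF receptor that leukocytes share, read 1980 to 2346 in controls and 2180 (2180.0) to 2777 in severe asthma. Enpp2, the enzyme autotaxin, fell by 2.70, and the log2 fold change of Ltbr, the lymphotoxin receptor, was -0.63 (adjusted p = 0.24). Of the genes that define such venules, Glycam1 read 0, 0 and 4.73 in controls and 0.0294, 5.27 and 3.97 in severe asthma, and Madcam1 was at 0 in all 6 libraries. Of the other genes on this list, Chst2 fell (log2 fold change -3.165, adjusted p = 0.00853). Fut7, at 1.00 to 6.52 in controls and 7.92 to 21.2 in severe asthma, was higher without overlap but did not pass (adjusted p = 0.0638). For Chst4 the groups overlapped. Of 8 further lymphatic genes, 2 rose, Pdpn (log2 fold change 2.21) and Fgl2 (1.32), which macrophages can also express, and 1 fell, Ccl21a (-1.31), which is also on the venule list and whose near-identical gene copies make its value uncertain. Nrp2, which has the highest mean of these 8 and is also on the ligand and co-receptor list, had a log2 fold change of 0.94 and did not pass (adjusted p = 0.154).

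Summed markers of other lung cells were lower in severe asthma, as the endothelial genes were, but not every marker fell. The summed value of 7 pericyte markers was 956 to 3849 in controls and 152 to 306 in severe asthma, with 4 of 7 fallen, and that of 9 fibroblast and smooth muscle markers was 5251 to 18300 and 1266 to 2790, with 6 of 9 fallen. For 8 alveolar epithelial markers it was 18490 to 68040 and 4352 to 8549, with 6 of 8 fallen. Sftpc was the largest part of this sum in controls, at 9169 to 37170. For Abca3 (log2 fold change -0.12) and Cdh1 (-1.11) the groups overlapped and neither passed. Control 1 was the highest library in each of these lists, as it was for the 41 endothelial genes, whose sum was 38610 to 111200 in controls and 9221 to 16680 in severe asthma. For 5 airway epithelial markers, 4 of which fell, control 1 was the lowest control (11270, against 15800 and 14630), and the severe asthma libraries held 3391 to 4981.

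Markers of blood cells moved in different directions. Of 9 monocyte and macrophage markers 6 rose and 0 fell, with sums of 12650 to 30440 in controls and 104700 to 213400 in severe asthma. The largest part was Lyz2, at 5659 to 15670 in controls and 49850 to 92260 in severe asthma. C1qa was higher without overlap but did not pass (limma adjusted p = 0.0575). For Mrc1 and Marco the groups overlapped, and the log2 fold change of Marco was -0.78 (limma adjusted p = 0.512). The 8 B cell markers summed to 137800, 195700 and 180100 in controls and 194400 to 212400 in severe asthma, with 2 risen and 0 fallen, so that control 1 held the lowest B cell sum. The 6 T cell markers in the table summed to 729 to 1026 in controls and 1090 to 1284 in severe asthma, with 1 risen (Lck) and 0 fallen. Lck was the largest part of each sum, at 435.5 to 511.6 in controls and 735.2 to 891.3 in severe asthma. Cd3g and Cd3e were lower in every severe asthma library than in every control library but did not pass (limma adjusted p = 0.08 and 0.114). For Cd3d, Cd4 and Cd8a the groups overlapped. The 6 platelet markers, of interest for Vwf and Selp, summed to 239 to 330 (329.5) in controls and 207 to 246 in severe asthma, with 1 risen (Pf4) and 3 fallen (Ppbp, Itga2b and Gp9), and control 1 was again the highest. The 5 mast cell and basophil markers summed to 5.001 to 12.8 in controls and 2.099 to 4.231 in severe asthma, with 0 of 3 tested markers risen or fallen and Mcpt8 at 0 in all libraries. No defining marker of the other lists was at 0. The part of these cells in the values of the endothelial genes was not tested.

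**Figure D4:**
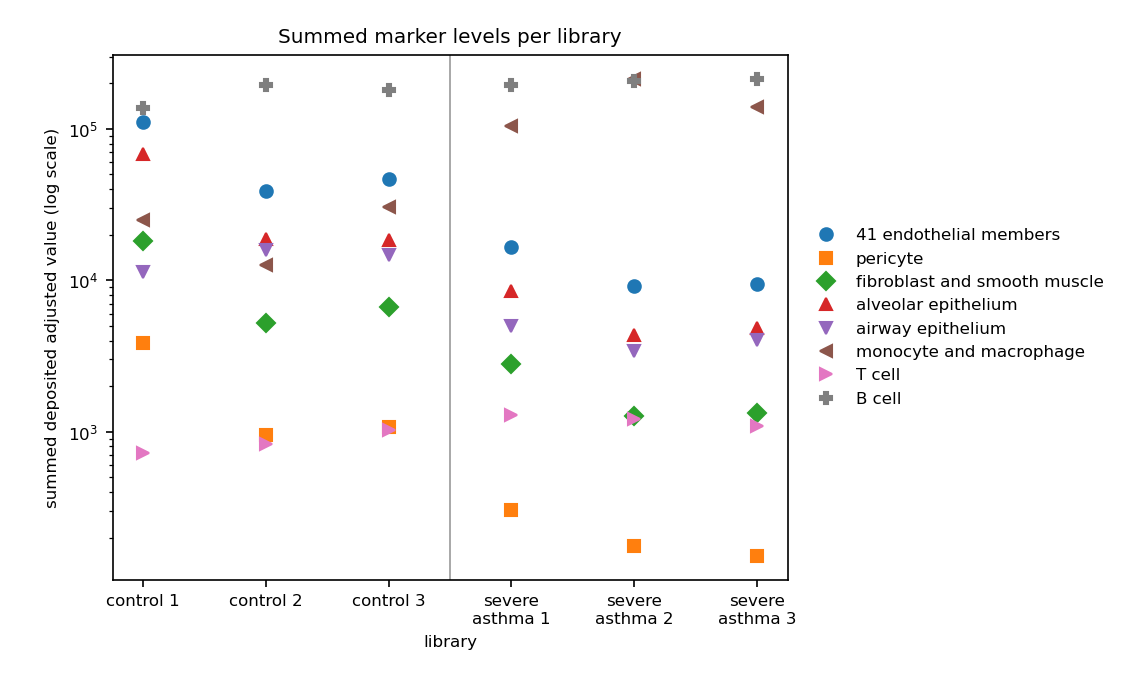
Summed deposited adjusted values of 8 gene lists (vertical log axis) in each of the 6 libraries. The endothelial, pericyte, fibroblast and alveolar lists are highest in control 1 and lower in the severe asthma libraries, the macrophage list is higher there, and the B cell list stays between 137800 and 212400.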

How the data were processed

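The authors deposited library-size-adjusted signal values per transcript for 6 libraries. Build mm10 and the tools HISAT2 2.1.0, HTSeq 0.11.2 and bcl2fastq are listed in the submitters' processing notes without a role or order, and the step that adjusted the values and strand use in counting are not given in the sources used here. Per the file headers, the authors also computed log2 fold changes, p-values and q-values. Every deposited mRNA value above 0.01 (432782 values) could be turned back into a whole read, within 0.05, by inverting an edgeR quantile adjustment with a fitted dispersion of 0.0474 (100% of values).

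Per gene the transcript of the highest mean was kept. Values were tested with limma 3.58.1 (trend, robust, two-sided) on log2(value + 1), which understates changes of low genes, over genes with a mean of at least 1, with Benjamini-Hochberg adjustment at 0.05. The script was tested on simulated data. Alternatives used edgeR 4.0.16 and DESeq2 1.42.0 on recovered reads, limma-voom, other pseudocounts, filters and scalings, a replicate block and each library left out. Replicate numbers come from the titles. Deviations from group means correlated at 0.414, 0.128 and 0.14 between libraries numbered 1, 2 and 3, across genes, each over the limit of 0.1 set for taking the numbers as pairs. Control 3 with severe asthma 2 (0.2) and control 2 with severe asthma 3 (0.179) correlated more than the same-numbered libraries 2 and 3 did, so the pairing is a hint from the data that rests mainly on the libraries numbered 1.

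Members, classes and lists were chosen with earlier results of these data known. Values of all libraries are given for up to 6 members per class of the highest mean, for members that missed the threshold with a mean of at least 20 and for a few others. Of each pathway list up to 3 genes of the highest mean are named, with further genes of the high endothelial venule list. Genes that went against their list were named after their values were seen. No depth interval is given for means. The table of non-coding transcripts was not used here.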

Additional observations from a re-analysis of the deposited data

How the results depend on the processing

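The fall of the endothelial genes kept its direction in all 19 alternatives, with 0 genes risen in each and a median log2 fold change over the 41 genes between -3.52 and -2.53. Leaving out 1 library gave 11 to 36 fallen endothelial genes, 728 to 2335 fallen and 1575 to 3401 risen genes in the whole table (2263 and 3262 with all libraries), and a venular or activated median of -1.52 to -1.05. Limma-voom on recovered reads gave 24 fallen endothelial genes and 1508 fallen genes in all. Scaling by total reads alone gave 1920 risen and 3111 fallen genes, moved the median of all genes from 0.06 to -0.08 and gave a median of -3.21 for the 41 genes, 38 of which fell. The venular or activated median was -1.635 with a mean value of at least 10, which removes Ackr1, and -1.685, -1.719, -1.791 and -1.825 with TMM, limma-voom, edgeR and DESeq2 on recovered reads, each of which filters out Ackr1. The replicate block raised the fallen endothelial genes to 39, adding Cd34 and Car4, and changed no other call among the 41. DESeq2 and edgeR also called 39. Prox1 turned to 0.069 without both libraries numbered 1, 0.131 without control 1 and 0.027 without control 3, and ran from -0.777 to 0.131 as single libraries were left out. Ackr1 turned to 0.386 without severe asthma 3 (-0.805 to 0.386). None of these passed, and the reads of both genes are few. The causes were not tested. With 3 libraries per group, the spread between libraries limits the precision, and for Prox1 and Ackr1 so does depth.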
